A study of Mus musculus with 8 samples.

Results

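Of the 36 listed genes of the Myc and ribosome biogenesis module, 33 were measured, out of 17097 named genes on the arrays. The list was matched by gene symbol to probe sets that carry a single symbol, and each gene is represented by its brightest probe set over the 8 arrays. Gnl3, Tsr1 and Mybbp1a had no such probe set and were not analysed here. Of the 33 genes, 32 lay above the background limit on all control arrays. Wdr75 lay under it on all 8 arrays, so its differences cannot be read as changes of its transcript. It is kept in the counts below. There it has positive differences from control in expanded (0.14) and TPA arrays (0.39). It also has its highest mean in TPA arrays, with both above all control arrays. The limit is the 95th percentile of 77 receptor genes for smell, pheromones and trace amines, between 6.40 and 6.56 on the arrays, and it rests on these genes being silent in skin.

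Basal epidermal cells came from the back skin of outbred CD1 mice, with 1 array for each mouse. Control mice (3) were untreated, expanded mice (3) had undergone forced skin expansion and were taken at day 4, and TPA mice (2) received 12-O-tetradecanoylphorbol-13-acetate, a tumour promoter of the phorbol ester class. The dose and duration of TPA are not given in the sources used here, and no genotype other than the strain is named. For each array 300 cells positive for ITGA6 and negative for CD34 were sorted, a gate that also takes in infundibulum cells, and their cDNA was amplified over 25 cycles. Signals are log2 values after RMA and group means stand with their SD (n = 3 control, 3 expanded and 2 TPA arrays). Each difference is a log2 difference with its SE, and its p comes from limma with Benjamini-Hochberg adjustment over all 17097 genes. A gene is called where the adjusted p is under 0.05. Signals of different probe sets are not compared with each other.

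The sorted cells had the transcripts of basal keratinocytes: Krt5 stood at 13.28 ± 0.05 and Krt14 at 13.30 ± 0.04 in control arrays, near the highest signal on any array, and Cd34 lay under the background limit on every array. Itga6, the sort marker, was at 12.27 ± 0.04 in control, 11.80 ± 0.04 in expanded and 11.58 ± 0.09 in TPA arrays. Genes known for their induction by phorbol ester or wounding ran against the labels. Odc1, ornithine decarboxylase and itself a Myc target, stood at 11.34 ± 0.02 in control, 9.84 ± 0.14 in expanded and 8.99 ± 0.09 in TPA arrays. Krt16, a keratin of hyperproliferative epidermis, was at 13.04 ± 0.01, 12.90 ± 0.04 and 12.15 ± 0.07 in the same order. Each direction below therefore holds for the arrays as labelled. With the labels of control and TPA swapped, the signs of TPA minus control would reverse, and the counts of expanded against control and of expanded against TPA would trade places.

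Myc is a transcription factor that binds DNA as a dimer with Max, usually at the E-box CACGTG, and it is known for raising genes of ribosome production and cell growth. Ribosomes are built in the nucleolus. RNA polymerase I transcribes the ribosomal RNA precursor, small nucleolar ribonucleoproteins (snoRNPs) modify it, and large assemblies of processing factors cleave it and fold it into the small and the large subunit. In the epidermis Myc is present in basal cells, and forced Myc activity is known to drive them to proliferate and to leave the stem cell compartment.

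Promoter sequence was available for 27 of the 33 genes in the RefSeq table of build GRCm38.p6, as windows from 250 bases before to 50 bases after the start, and Myc was not among them. CACGTG, which reads the same on both strands, was in 4 of 31 windows of these genes (12.9%), and in 7.15% of all 32851 windows. A related E-box, CACGCG on either strand (no overlap with CACGTG), was in 9 of 31 windows (29%), which belong to 8 genes, and in 9.27% of all windows. For neither E-box were all windows matched to those of these genes in base composition. The 4 genes with CACGTG were Nop2, Pes1, Wdr43 and Utp20, and of these only Nop2 was called in a comparison. The sites are shown because this is the sequence that Myc is best known to bind, with the 6 bases in capitals. They lie at chr6:125131813-125131838 (Nop2, plus strand, first capital 60 bases before the start), chr11:3963967-3963992 (Pes1, plus strand, base 3 of the transcript), chr17:71616222-71616247 (Wdr43, plus strand, base 18) and chr10:88826765-88826787 (Utp20, minus strand, base 38).
Nop2: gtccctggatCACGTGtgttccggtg
Pes1: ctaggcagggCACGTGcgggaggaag
Wdr43: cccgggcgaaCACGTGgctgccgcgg
Utp20: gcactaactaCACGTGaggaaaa

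The 250 bases before the start are shown for 3 genes that were called higher in expanded arrays: Nop2, with an E-box, and Nop10 and Polr1b, with the letters of neither E-box in this stretch. Capitals mark CACGTG in Nop2 and ACTACATTTCCCAG in the other two. The windows are chr6:125131633-125131882, chr2:112261676-112261925 and chr2:129100746-129100995, all on the plus strand. ACTACATTTCCCAG is the longest run of letters that the Nop10 and Polr1b stretches share, a pair picked after the windows had been read. Searched on both strands, it lay 34 bases before the start in Nop10 and 22 bases before it in Polr1b. No other gene among the 31 windows of the measured genes had it, so it was in 2 of 31 (6.45%). As this pair defined the stretch, that share was fixed in advance and cannot be read against the 0.283% of all windows that had it. Nop10 also had CACGCG at base 25 of its transcript. A match is a description of letters, and no binding was measured.
Nop2: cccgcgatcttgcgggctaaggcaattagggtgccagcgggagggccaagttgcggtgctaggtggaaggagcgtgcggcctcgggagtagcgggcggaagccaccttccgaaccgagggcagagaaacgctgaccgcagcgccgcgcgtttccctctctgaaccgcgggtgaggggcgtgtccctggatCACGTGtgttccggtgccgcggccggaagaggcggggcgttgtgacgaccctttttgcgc
Nop10: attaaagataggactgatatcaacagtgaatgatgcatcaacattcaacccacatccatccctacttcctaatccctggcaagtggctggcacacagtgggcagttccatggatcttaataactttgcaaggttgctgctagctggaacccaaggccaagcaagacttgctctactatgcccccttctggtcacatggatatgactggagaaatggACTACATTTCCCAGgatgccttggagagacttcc
Polr1b: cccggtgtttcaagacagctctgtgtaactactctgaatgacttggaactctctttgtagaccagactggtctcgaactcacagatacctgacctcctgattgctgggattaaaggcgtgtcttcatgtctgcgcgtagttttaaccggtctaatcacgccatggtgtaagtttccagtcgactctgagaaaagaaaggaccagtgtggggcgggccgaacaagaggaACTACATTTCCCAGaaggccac

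Expanded skin asks how these genes stand 4 days into stretch. Myc was higher in expanded arrays, together with both RNA polymerase I subunits of the module (Polr1a and Polr1b), nucleolin (Ncl), the snoRNP protein Nop10, and the processing factors Nop14 and Nop2. In total 7 of 33 genes were called higher (21.2%) and 0 lower, beside 11.5% of all genes called, 5.69% higher and 5.78% lower. At an unadjusted p under 0.05 there were 16 higher and 0 lower, beside 12.4% of all genes higher and 11.3% lower. The differences were small: the largest was 0.61, a fold of 1.52, and the median was 0.22 beside 0.01 for all genes. Of the 33 genes, 29 had a positive difference (87.9%), beside 51.6% of all genes. In 21 of 33 all expanded arrays lay above all control arrays (63.6%), which was so for 15.4% of all genes, and in 0 of 33 all lay below (14.5% of all genes). All genes include many dim ones, which are called less often. Tested over only the 8568 genes with a mean above the median signal, 11 members were called higher and 0 lower. Of these brighter genes 24.2% were called in either direction. The other shares of all genes, here and below, were not computed for brighter genes alone.

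Without control replicate 2 or without expanded replicate 3 4 of 33 genes were called higher, while the share of all genes called fell from 11.5% to 7.38% and 8.19%. None of the 33 was called against a fold of 1.5, beside 1.01% of all genes. Because 1 array stands for each mouse, the genes are not independent readings: control replicate 2 was the lowest of the control arrays for 25 of 33 genes (75.8%, beside 29% of all genes), and expanded replicate 3 was the highest of the expanded arrays for 19 (57.6%, beside 33.6%). In bulk samples, more cells with a transcript and more transcript per cell cannot be told apart.

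TPA-treated skin was compared with the same 3 control arrays, so this comparison and the one above are not independent. Myc, Ncl and Nop10 were called higher in the arrays labelled TPA and Noc4l, a factor of small subunit assembly, lower, so that 4 of 33 genes were called (12.1%), beside 20.8% of all genes, 10.2% higher and 10.6% lower. At an unadjusted p under 0.05 there were 6 higher and 2 lower, beside 15% and 16.7% of all genes. The median of the 33 genes was -0.01, beside -0.03 for all genes, and 16 differences were positive and 17 negative. All TPA arrays lay above all control arrays in 8 of 33 genes (24.2%, beside 20.4% of all genes) and below them in 6 (18.2%, beside 25.4%). TPA replicate 1 was below TPA replicate 2 in 25 of 33 genes (75.8%, beside 53.4% of all genes). Tested over the 8568 brighter genes, 4 members were called higher and 1 lower, beside 38.7% of these genes called in either direction.

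The direct comparison of expanded with TPA arrays called Nop56, Dkc1, Nhp2 and Noc4l higher in expanded arrays and Myc lower. These are 5 of 33 genes (15.2%), beside 5.98% of all genes, 3.16% higher and 2.81% lower. At an unadjusted p under 0.05 there were 12 higher and 1 lower, beside 10.9% and 8.45% of all genes. The median was 0.18 (0.03 for all genes), and 29 of 33 differences were positive (87.9%, beside 58.6%). All expanded arrays lay above all TPA arrays in 21 of 33 genes (63.6%, beside 21.8%) and below them in 1, Myc (3.03%, beside 13.9%). Without expanded replicate 3 or without TPA replicate 1 none of the 33 was called higher (3.28% and 3.32% of all genes called in either direction), and leaving out any of the other arrays except TPA replicate 2 left 1 or 2. Myc lost its call without control replicate 2, expanded replicate 2, expanded replicate 3 or either TPA array. With the replicate number as a block, 0 of the 33 were called in either direction, beside 3.16% of all genes. Tested over the 8568 brighter genes, 6 members were called higher and 1 lower, beside 13.1% of these genes called in either direction.

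**Figure D1:**
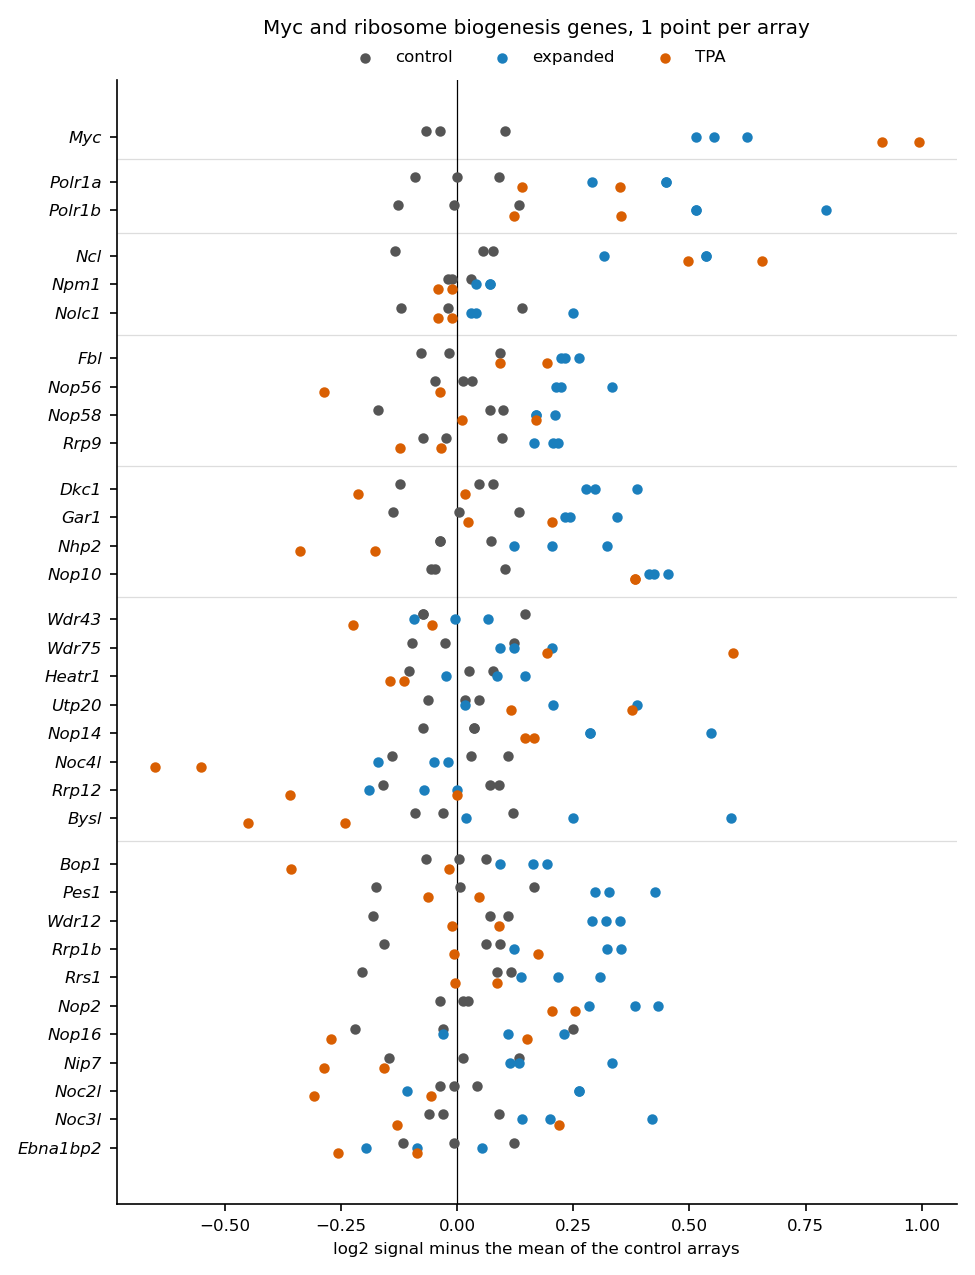
Log2 signal of each of the 33 genes on each array (x axis), as the difference from the mean of its control arrays, with genes grouped by role on the y axis and 1 point per array. Expanded arrays lie to the right of control arrays in most rows, with 21 genes without overlap, and TPA arrays lie on both sides.

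Across the 3 groups, 25 of 33 genes had their highest mean in expanded arrays (75.8%, beside 30% of all genes), 4 in control and 4 in TPA arrays. In 16 of 33 (48.5%, beside 3.28% of all genes) every expanded array lay above every control and every TPA array. They were Polr1b, Npm1, Fbl, Nop56, Nop58, Rrp9, Dkc1, Gar1, Nhp2, Nop10, Nop14, Bop1, Pes1, Wdr12, Rrs1 and Nop2, and so included all 4 box C/D and all 4 box H/ACA snoRNP proteins. This order is that of the brightest probe sets. Where these genes had another probe set, it kept the order in Npm1, Fbl and Wdr12. It did not in Dkc1, Nhp2, Nop10, Pes1 and Rrs1. The other probe sets of Wdr12 and Pes1 were above the background limit on only 2 and 3 arrays. Myc did not share this order, since its highest signals were those of the arrays labelled TPA.

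Myc stood at 10.40, 10.43 and 10.57 in control arrays, at 11.09, 11.02 and 10.98 in expanded arrays and at 11.38 and 11.46 in TPA arrays. The groups did not overlap, with control lowest and TPA highest. The difference was 0.56 ± 0.07 between expanded and control (1.48-fold, adjusted p = 0.00179) and 0.95 ± 0.08 between TPA and control (1.94-fold, adjusted p = 9.48e-05). Between expanded and TPA it was -0.39 ± 0.08 (adjusted p = 0.0298).

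In the module RNA polymerase I is represented by its catalytic core, the large subunits encoded by Polr1a and Polr1b. Polr1b stood at 7.72, 7.98 and 7.84 in control arrays, at 8.64, 8.36 and 8.36 in expanded arrays and at 8.20 and 7.97 in TPA arrays. Every expanded array was above every other array, and TPA overlapped with control. The difference was 0.61 ± 0.11 between expanded and control (adjusted p = 0.00918) and 0.24 ± 0.12 between TPA and control (adjusted p = 0.236).

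Polr1a stood at 9.04, 8.95 and 9.13 in control, 9.49, 9.33 and 9.49 in expanded and 9.18 and 9.39 in TPA arrays. Expanded arrays were above control arrays and overlapped with TPA. The difference from control was 0.40 ± 0.09 in expanded arrays (adjusted p = 0.0214). Its other 2 probe sets did not share it, with -0.04 ± 0.15 and -0.03 ± 0.13. In TPA arrays 1 of these was called lower (-0.54 ± 0.15, adjusted p = 0.0372 over all probe sets) where the brightest was at 0.25 ± 0.10. With the mean of the 3 probe sets the expanded difference of Polr1a was 0.11 and not called. It was also not called without control replicate 1, control replicate 2, expanded replicate 1 or expanded replicate 3.

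Among the abundant nucleolar proteins, Ncl (nucleolin, which binds the ribosomal RNA precursor) was called in the same comparisons with control as Myc. It stood at 9.13, 8.94 and 9.15 in control arrays, at 9.61, 9.39 and 9.61 in expanded arrays and at 9.73 and 9.57 in TPA arrays. Both treated groups lay above control and overlapped with each other. The difference from control was 0.46 ± 0.10 in expanded (adjusted p = 0.0165) and 0.57 ± 0.11 in TPA arrays (adjusted p = 0.00573). The expanded call was lost without control replicate 2, expanded replicate 1 or expanded replicate 3.

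Npm1 (nucleophosmin, a chaperone of ribosome assembly) was at 12.60, 12.59 and 12.64 in control, 12.68, 12.65 and 12.68 in expanded and 12.57 and 12.60 in TPA arrays. The expanded arrays were the highest, but by little, with a difference from control of 0.06 ± 0.06 (adjusted p = 0.653). Nolc1, a chaperone of snoRNPs, had a difference of 0.10 ± 0.09 in expanded and -0.03 ± 0.10 in TPA arrays, neither called. One of its 2 other probe sets was called lower in TPA arrays (-0.30 ± 0.09, adjusted p = 0.0391 over all probe sets).

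**Figure D2:**
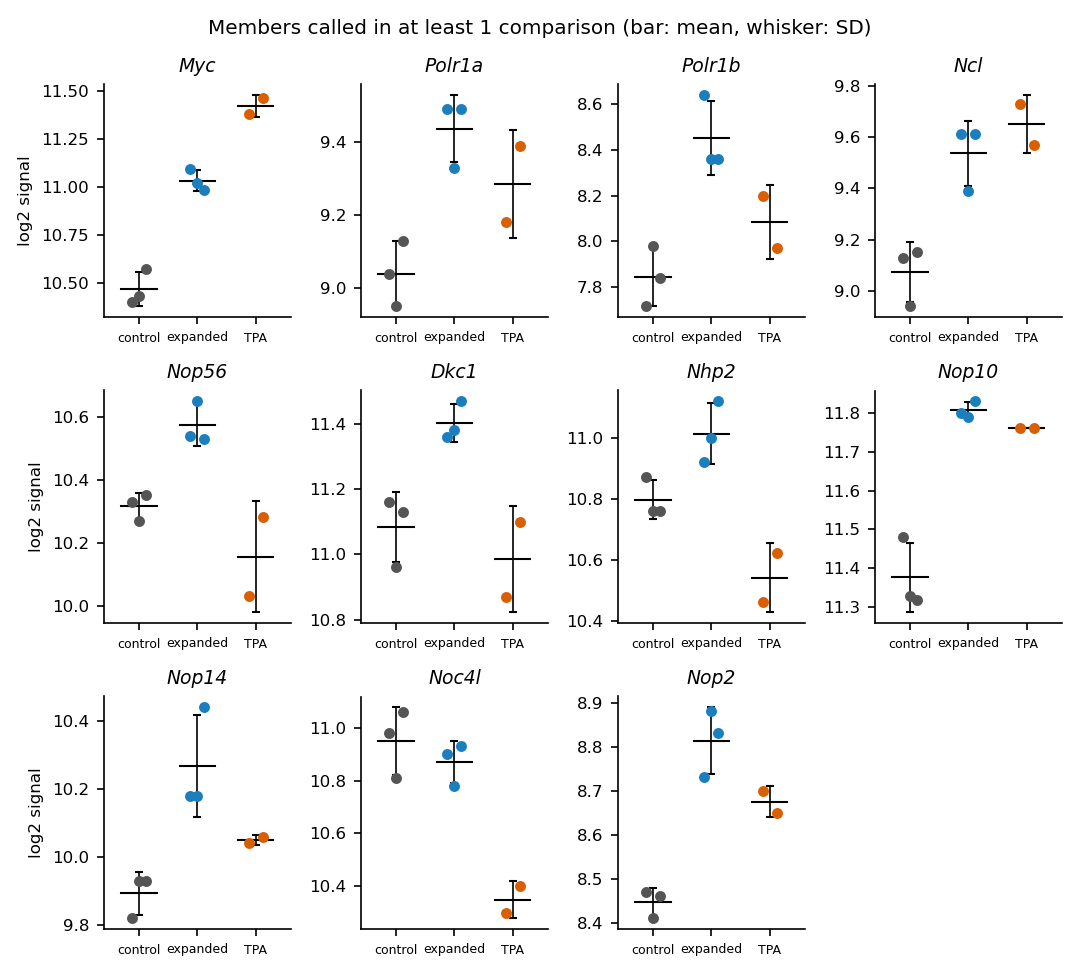
Log2 signal (y axis, own scale per gene) of the 11 genes called in at least 1 comparison, by group (x axis), with 1 point per array, the mean as a bar and the SD as a whisker. Myc and Ncl are highest in TPA arrays, while Polr1b, Nop56, Dkc1, Nhp2, Nop10, Nop14 and Nop2 have every expanded array above all other arrays.

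Box C/D snoRNPs guide methylation of the ribosomal RNA, with Fbl (fibrillarin) as the methyltransferase, Nop56 and Nop58 as the core scaffold, and Rrp9 as the protein of the U3 particle. All 4 had a positive difference between expanded and control, from 0.18 to 0.26, and 0 of 4 were called. Fbl stood at 12.07, 11.90 and 11.96 in control, 12.21, 12.20 and 12.24 in expanded and 12.07 and 12.17 in TPA arrays. All expanded arrays were above the others, and the difference from control was 0.24 ± 0.07 (adjusted p = 0.0702).

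Nop56 stood at 10.33, 10.27 and 10.35 in control arrays, at 10.54, 10.65 and 10.53 in expanded arrays and at 10.03 and 10.28 in TPA arrays. Here 1 TPA array lay under all control arrays and the other among them. The call was between expanded and TPA (0.42 ± 0.09, adjusted p = 0.0355), while the difference from control was 0.26 ± 0.08 in expanded and -0.16 ± 0.09 in TPA arrays. The call of Nop56 was lost on leaving out any 1 array other than TPA replicate 2.

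Box H/ACA snoRNPs turn uridine into pseudouridine, with Dkc1 (dyskerin) as the enzyme and Gar1, Nhp2 and Nop10 as its partners. Their differences between expanded and control were all positive, from 0.21 to 0.43, but the 4 genes parted in the TPA arrays, where Nop10 was higher and Nhp2 lower than control in every array. Nop10 stood at 11.48, 11.33 and 11.32 in control arrays, at 11.80, 11.79 and 11.83 in expanded arrays and at 11.76 and 11.76 in TPA arrays. Both treated groups lay well above control, with differences of 0.43 ± 0.07 (adjusted p = 0.00486) and 0.39 ± 0.08 (adjusted p = 0.00814). A second probe set of Nop10 was also called higher in expanded arrays (0.39 ± 0.09, adjusted p = 0.0288 over all probe sets), but not in TPA arrays (0.23 ± 0.10).

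Nhp2 stood at 10.87, 10.76 and 10.76 in control arrays, at 10.92, 11.00 and 11.12 in expanded arrays and at 10.46 and 10.62 in TPA arrays. The 3 groups did not overlap, with TPA lowest. It was called between expanded and TPA (0.47 ± 0.09, adjusted p = 0.0213), and its second probe set had the same difference (0.47 ± 0.09, adjusted p = 0.0246 over all probe sets) and was also called lower in TPA than in control (-0.34 ± 0.09, adjusted p = 0.0315). The call of the brightest probe set was lost without expanded replicate 2, expanded replicate 3 or TPA replicate 1.

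Dkc1 stood at 11.16, 10.96 and 11.13 in control arrays, at 11.36, 11.38 and 11.47 in expanded arrays and at 10.87 and 11.10 in TPA arrays. Expanded arrays were the highest, and TPA overlapped with control. The difference was 0.42 ± 0.10 between expanded and TPA (adjusted p = 0.046) and 0.32 ± 0.09 between expanded and control (adjusted p = 0.0529). The first of these lost its call on leaving out any 1 array other than TPA replicate 2, and when each array was centred on its median. It was also lost with the mean of the probe sets (0.41 ± 0.13, adjusted p = 0.102) and with each probe set tested by itself (adjusted p = 0.0524). The second probe set of Dkc1 was not called in any comparison. It had 0.46 ± 0.17 between expanded and control, 0.07 ± 0.19 between TPA and control and 0.40 ± 0.19 between expanded and TPA. Gar1 had a difference of 0.27 ± 0.09 between expanded and control (adjusted p = 0.0984).

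The small subunit processome and the factors that carry the small subunit out were the least uniform group. Of 8 measured genes, 5 had a positive difference between expanded and control, among them Wdr75, which lay under the background limit, and only Nop14 was called. Nop14, a core protein of the processome, stood at 9.82, 9.93 and 9.93 in control, 10.18, 10.18 and 10.44 in expanded and 10.04 and 10.06 in TPA arrays. The 3 groups did not overlap, with expanded highest. The difference between expanded and control was 0.38 ± 0.09 (adjusted p = 0.0255). The call was lost without any 1 of the control arrays or without expanded replicate 3.

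Noc4l stood at 10.98, 10.81 and 11.06 in control, 10.90, 10.78 and 10.93 in expanded and 10.30 and 10.40 in TPA arrays. The TPA arrays were the lowest, with a difference from control of -0.60 ± 0.10 (adjusted p = 0.0026) and a difference between expanded and TPA of 0.52 ± 0.10 (adjusted p = 0.0176). The latter call was lost without expanded replicate 1, expanded replicate 3 or TPA replicate 1. This fall rests on 1 probe set, of a type (suffix x_at) that may bind other transcripts. The other 2 probe sets of Noc4l had TPA differences of 0.05 ± 0.10 and -0.17 ± 0.23, and with the mean of the 3 the difference was -0.24 and not called. Bysl, which acts in export of the small subunit, had the largest difference between expanded and TPA in the module, 0.64 ± 0.16, but was not called (adjusted p = 0.0542). Wdr43, Heatr1 and Utp20 of the processome and the export factor Rrp12 were not called in any comparison by their brightest probe set, with expanded differences from -0.08 (Rrp12) to 0.20 (Utp20).

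**Figure D3:**
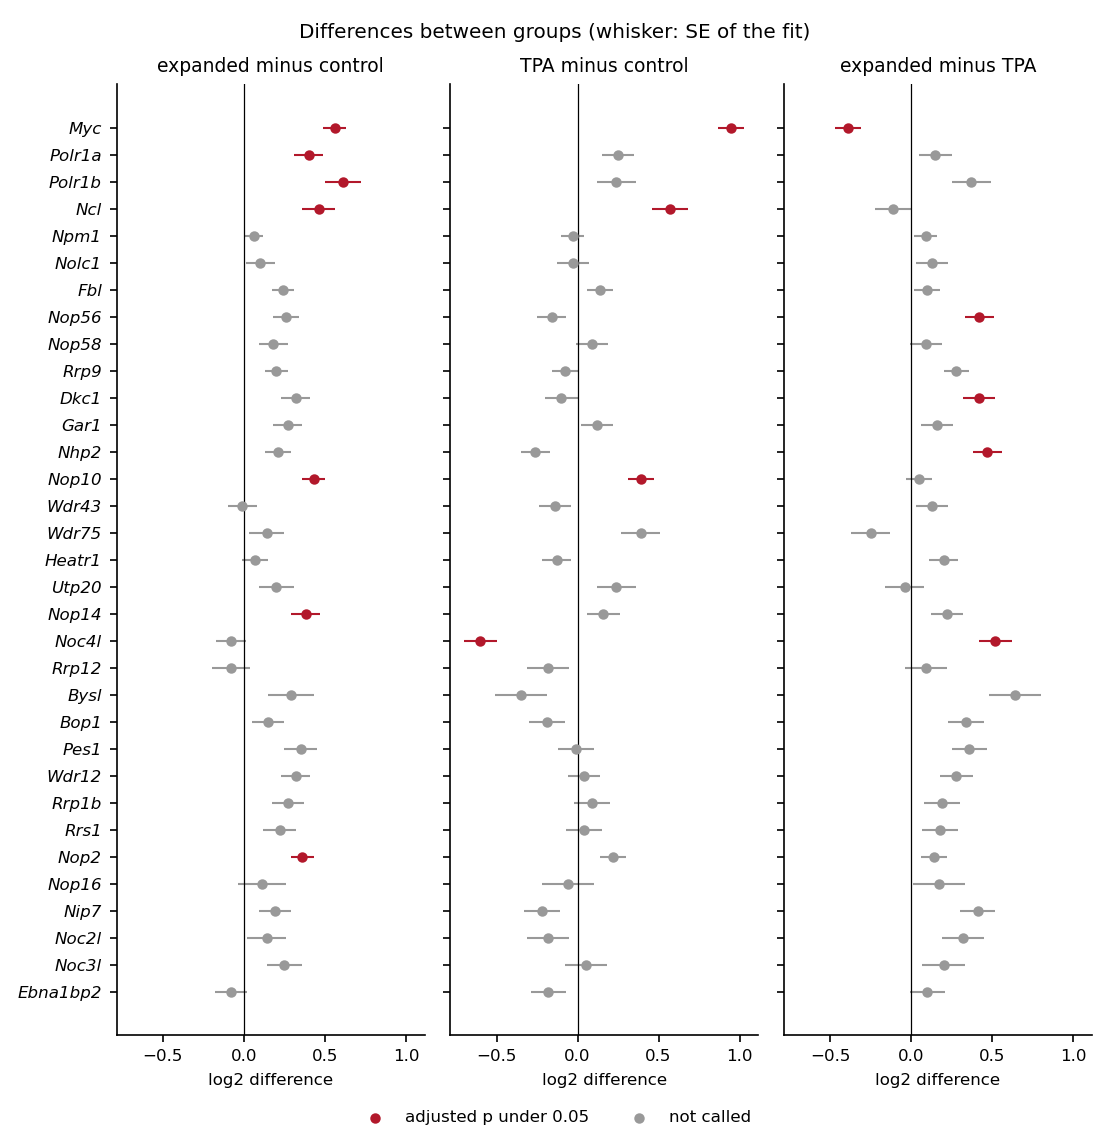
Log2 differences (x axis) of the 33 genes (y axis) in the 3 comparisons, with the SE of the fit as whiskers and genes with an adjusted p under 0.05 in red. Of 33 differences, 29 are positive between expanded and control, 16 between TPA and control and 29 between expanded and TPA.

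Large subunit maturation held 11 of the genes, and 10 had a positive difference between expanded and control, with a median of 0.22. Nop2, a methyltransferase of the large subunit RNA, was the only one called. It stood at 8.47, 8.41 and 8.46 in control arrays, at 8.73, 8.88 and 8.83 in expanded arrays and at 8.70 and 8.65 in TPA arrays. The groups did not overlap, with control lowest and expanded highest. The difference from control was 0.36 ± 0.07 in expanded (adjusted p = 0.01) and 0.22 ± 0.08 in TPA arrays (adjusted p = 0.0727).

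Pes1, Bop1 and Wdr12 form the PeBoW complex, which processes the large subunit RNA. In each of them every expanded array lay above all other arrays. Between expanded and control Pes1 had a difference of 0.35 ± 0.10 (adjusted p = 0.0524), Wdr12 of 0.32 ± 0.09 (adjusted p = 0.0517) and Bop1 of 0.15 ± 0.10 (adjusted p = 0.423), so none was called. The second probe set of Pes1, above the background limit on only 3 arrays, differed from the first. It was at -0.01 ± 0.13 between expanded and control and was called higher in TPA arrays (0.53 ± 0.14, adjusted p = 0.0304 over all probe sets). Rrp1b had a difference of 0.27 ± 0.10 that was not called, while its second probe set was called higher in expanded arrays (0.44 ± 0.11, adjusted p = 0.0378 over all probe sets). Of the others, Rrs1, Nop16, Nip7, Noc2l and Noc3l had expanded differences between 0.11 and 0.25, Ebna1bp2 had -0.08, and none was called in any comparison by its brightest probe set. The second probe set of Noc2l was called higher in TPA arrays (0.77 ± 0.20, adjusted p = 0.0272 over all probe sets), where the brightest was at -0.18 ± 0.13.

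Of the 33 genes, 20 had more than 1 probe set, which gave 24 further probe sets. Of these, 20 had the sign of the brightest one between expanded and control, 13 between TPA and control and 18 between expanded and TPA. With each probe set tested by itself over 28898 probe sets, 2 of the 24 were called higher and 0 lower in expanded arrays, and 2 higher and 3 lower in TPA arrays. Between expanded and TPA 3 were called higher and 0 lower, namely those of Nhp2 above, Nolc1 (0.48 ± 0.09, adjusted p = 0.0183) and Wdr43 (0.51 ± 0.11, adjusted p = 0.04). In the same fit 10.8% of the brightest probe sets of all 17097 genes were called in expanded arrays. The share was 20.2% in TPA arrays and 5.38% between expanded and TPA.

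**Figure D4:**
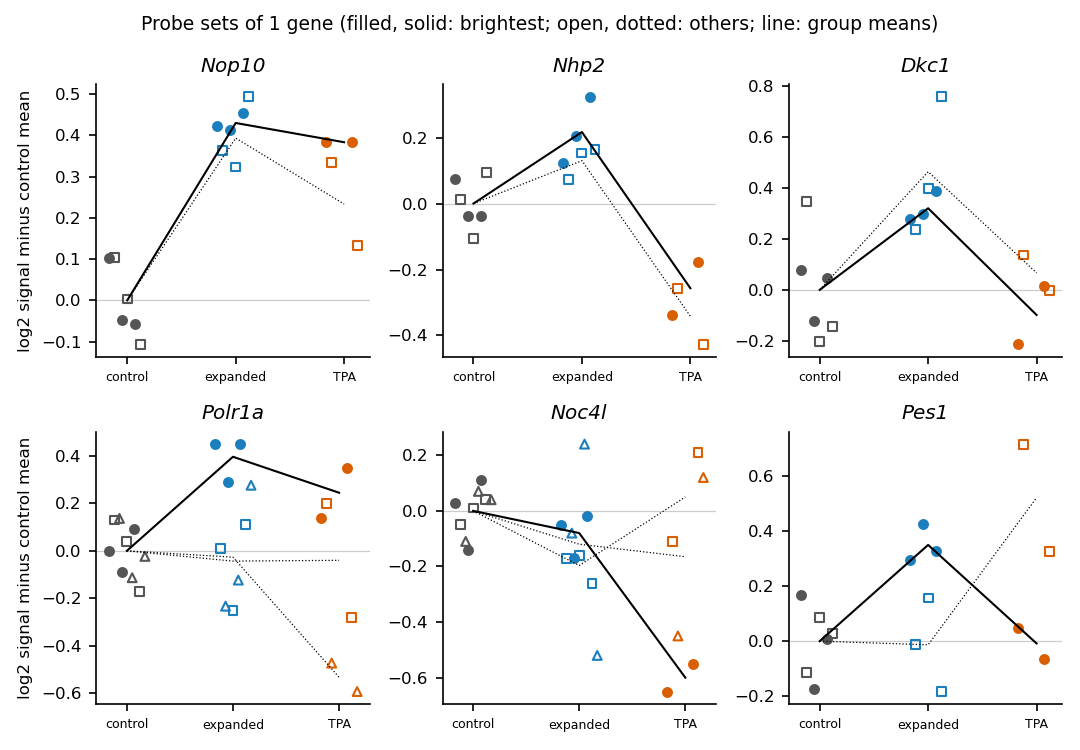
Log2 signal minus the control mean (y axis) by group (x axis) for all probe sets of 6 genes, with 1 point per array, the brightest probe set filled and joined by a solid line through group means, and the others open and dotted. The probe sets of Nop10 and Nhp2 run together, while those of Polr1a, Noc4l and Pes1 part. Those of Dkc1 both rise in expanded arrays but differ in sign in TPA arrays (-0.10 for the brightest and 0.07 for the other).

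The other factors of the pathway were read from lists that share no gene with the 33, and their shares called are given beside those of all genes (11.5% in expanded arrays, 20.8% in TPA arrays and 5.98% between expanded and TPA). In the small subunit processome list, of 40 measured genes 2 were higher and 1 lower in expanded arrays (7.5% called, median 0.14), 1 higher and 4 lower in TPA arrays (12.5%, median -0.05), and 6 higher and 0 lower between expanded and TPA (15%, median 0.21, 14 and 0 at an unadjusted p under 0.05). Utp4 had the smallest p: it stood at 9.95 ± 0.02, 9.82 ± 0.11 and 9.14 ± 0.03 in control, expanded and TPA arrays, with -0.81 ± 0.08 between TPA and control (adjusted p = 0.000228). Imp4, of the U3 particle, had -0.51 ± 0.11 and Utp6 -0.47 ± 0.09 in the same comparison, and Wdr3 had 0.59 ± 0.11 between expanded and TPA.

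Among 49 measured genes of large subunit maturation, 5 were higher and 1 lower in expanded arrays (12.2% called, median 0.08), and 4 were higher and 4 lower in TPA arrays (16.3%, median -0.11). Nsa2 (0.62 ± 0.07 and 0.73 ± 0.08) and Nop53 (0.38 ± 0.08 and 0.64 ± 0.09) were called higher in both. Mrto4 was lower in TPA arrays (-0.37 ± 0.07) and Sbds lower in expanded arrays (-0.37 ± 0.08). Between expanded and TPA 0 of the 49 were called (median 0.18, 15 higher and 3 lower at an unadjusted p under 0.05). Of 15 measured genes of RNA polymerase I and its factors, 2 were higher and 0 lower in expanded arrays (13.3% called, 3 and 0 at an unadjusted p under 0.05). They were Taf1d (0.56 ± 0.10) and Taf1a (0.59 ± 0.15), parts of the selectivity factor of this polymerase. In TPA arrays 1 of the 15 was higher, again Taf1a (0.77 ± 0.16), and 0 were lower (6.67% called). Between expanded and TPA 0 of the 15 were called (3 higher and 0 lower unadjusted). Of 11 snoRNP assembly genes, 2 were higher and 0 lower in expanded arrays (18.2% called, 3 and 0 unadjusted). They were Rpp40 (0.47 ± 0.11) and Tgs1 (0.37 ± 0.10). In TPA arrays 1 of the 11 was higher, again Tgs1 (0.48 ± 0.11), and 0 were lower (9.09% called). Between expanded and TPA 0 of the 11 were called (2 higher and 0 lower unadjusted).

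Ribosomal proteins are not in the module. Of 68 measured cytosolic ribosomal protein genes, 17 were higher (25%, beside 5.69% of all genes) and 0 lower in expanded arrays (45 and 0 at an unadjusted p under 0.05), with a median of 0.18. In TPA arrays 26 were higher (38.2%, beside 10.2% of all genes) and 0 lower (47 and 0 unadjusted), with a median of 0.22. Between expanded and TPA 0 were called (0 higher and 1 lower unadjusted), with a median of -0.03. Rpl13 stood at 10.83 ± 0.08, 11.22 ± 0.01 and 11.42 ± 0.03 in control, expanded and TPA arrays, and Rpl32 at 11.45 ± 0.08, 11.83 ± 0.06 and 11.88 ± 0.03. Rpl36a had differences of 0.43 ± 0.09 and 0.54 ± 0.11 in expanded and TPA arrays. Rpl17 was also called higher in both, with 0.23 ± 0.06 and 0.37 ± 0.07.

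These counts moved with single arrays and with the test. Leaving out any 1 array other than control replicate 1 left 2 to 11 ribosomal protein genes in expanded arrays, beside 7.38% to 12.1% of all genes called. Leaving out control replicate 2 or 3 or expanded replicate 2 or 3 left 9 to 17 in TPA arrays, beside 16.2% to 19.6% of all genes called. With the replicate block there were 5 and 8, beside 9.6% and 16.5% of all genes. With a trended and robust eBayes there were 53 and 54, beside 13.6% and 21.8%. Many of these genes have near-identical pseudogenes, so their probe sets are uncertain.

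Among the partners and rivals of Myc, calls went in both directions. Mycl, a Myc relative, stood at 6.60 ± 0.35 in control, 8.60 ± 0.08 in expanded and 8.70 ± 0.28 in TPA arrays, with differences of 2.00 ± 0.17 (adjusted p = 0.000237) and 2.10 ± 0.19 (adjusted p = 0.000129). Only 1 of its 3 control arrays was above the background limit, so the size of these differences is uncertain. The Max-binding repressors went both ways. Mxd4 (0.55 ± 0.10 in expanded, 1.04 ± 0.11 in TPA arrays) and Mnt (0.29 ± 0.08 and 0.59 ± 0.08) were higher, and Mxi1 was lower (-0.98 ± 0.13 and -1.32 ± 0.15). In all, of 11 measured genes 3 were higher and 2 lower in expanded arrays (45.5% called), and 5 were higher and 3 lower in TPA arrays (72.7%).

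Known Myc targets outside the nucleolus went both ways in the TPA arrays. Of 30 measured genes, 4 were higher and 1 lower in expanded arrays (13.3% and 3.33%, beside 5.69% and 5.78% of all genes, median 0.15). In TPA arrays 3 were higher and 7 lower (10% and 23.3%, beside 10.2% and 10.6% of all genes, median -0.04). Between expanded and TPA 8 were higher (26.7%, beside 3.16% of all genes) and 0 lower (13 and 2 at an unadjusted p under 0.05). Ldha, lactate dehydrogenase, stood at 12.99 ± 0.03, 12.80 ± 0.01 and 12.52 ± 0.05 in control, expanded and TPA arrays. Nme1 (-0.49 ± 0.07), Shmt2 (-0.36 ± 0.08) and Prdx3 (-0.94 ± 0.11) were also lower in TPA than in control arrays. Odc1, named above as a Myc target, is not in this list and not in its counts or medians. It was called lower in both treated groups (-1.50 ± 0.09 in expanded and -2.35 ± 0.10 in TPA arrays). Genes that Myc is known to repress went both ways. In expanded arrays 1 of 7 was higher and 2 lower (42.9% called), and in TPA arrays 3 were higher and 2 lower (71.4%). Cdkn1a, the cell cycle inhibitor p21, differed by -0.47 ± 0.06 in expanded and -0.41 ± 0.07 in TPA arrays, Ndrg1 by -1.51 ± 0.07 and -1.37 ± 0.08, and Gadd45a by -0.08 ± 0.12 and 1.16 ± 0.14.

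**Figure D5:**
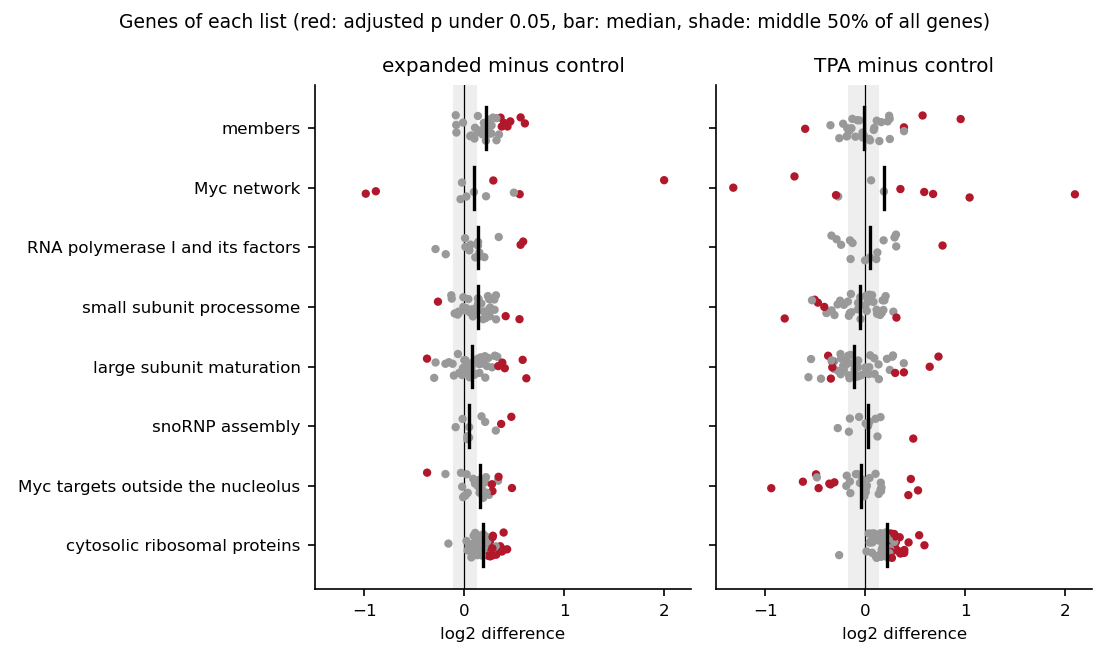
Log2 differences (x axis) of the genes of each list (y axis) between expanded and control (left) and TPA and control (right), with called genes in red, the list median as a bar and the middle 50% of all genes shaded. The 33 genes have medians of 0.22 and -0.01, and the ribosomal proteins of 0.18 and 0.22.

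Markers of other cell states and cell types differed between the same groups. Of 9 suprabasal markers, 5 were higher and 0 lower in expanded arrays and 4 higher and 0 lower in TPA arrays. Their summed signal, on a log2 scale, ran from 13.48 to 13.94 in control, 14.60 to 14.72 in expanded and 14.51 to 14.62 in TPA arrays, and Lor and Flg lay under the background limit on every array. Krt10, a keratin of differentiating cells, stood at 11.26 ± 0.57, 12.73 ± 0.03 and 12.72 ± 0.01. Of 9 proliferation markers, 1 was higher and 0 lower in expanded arrays (1 and 1 at an unadjusted p under 0.05), and 0 were higher and 3 lower in TPA arrays (0 and 4 unadjusted). Mki67, a marker of cycling cells, stood at 10.44 ± 0.10, 10.48 ± 0.09 and 10.32 ± 0.01, and the summed signal of the list ran from 13.90 to 14.07, 13.97 to 14.04 and 13.74 to 13.81.

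The basal list itself shifted. Of its 8 genes, 1 was higher and 3 lower in each treated group: Krt15 was higher (1.23 ± 0.09 in expanded and 2.38 ± 0.10 in TPA arrays), and Lamb3 (-0.96 ± 0.07 and -1.25 ± 0.08), Itgb4 (-0.38 ± 0.06 and -0.32 ± 0.07) and Itga6 were lower. The summed signal of this list ran from 15.65 to 15.69 in control, was 15.48 in all expanded arrays and ran from 15.52 to 15.58 in TPA arrays. Of 5 infundibulum markers, 1 was higher and 2 lower in each treated group, with Sostdc1 higher (0.77 ± 0.12 and 1.27 ± 0.13) and Klk10 (-1.28 ± 0.15 and -3.66 ± 0.17) and Plet1 (-1.08 ± 0.13 and -0.70 ± 0.15) lower. Their summed signal ran from 12.89 to 13.22, 12.01 to 12.56 and 12.80 to 12.91 in control, expanded and TPA arrays. Of 5 bulge markers, Cd34, Lhx2 and Lgr5 lay under the limit on every array, and Postn was called higher (1.31 ± 0.17 and 1.90 ± 0.19), with a summed signal of 10.61 to 10.79, 11.19 to 11.82 and 11.99 to 12.00.

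Of 5 T cell markers, Cd3e, Cd3d, Cd3g and Ptprc lay under the limit on every array. Thy1 was the only one called, and was higher (1.23 ± 0.13 and 1.33 ± 0.14), with 2 of 5 differences positive in each treated group. The summed signal, which is mostly that of Thy1, ran from 9.15 to 9.56, 10.27 to 10.34 and 10.32 to 10.47. Of 6 fibroblast markers, Col1a2, Lum and Pdgfra lay under the limit on every array. In expanded arrays 0 were called, and in TPA arrays only Dcn was (1.69 ± 0.23). In TPA arrays 3 of 6 differences were positive, with a median of 0.05 and a lowest of -0.68. The summed signal of the list ran from 8.66 to 9.04, 8.82 to 8.95 and 9.32 to 9.53. Of 6 Langerhans cell markers, Cd207 lay under the limit on every array. In expanded arrays 0 were higher and 2 lower, Epcam (-1.04 ± 0.17) and H2-Ab1. In TPA arrays 0 were higher and 1 lower, again H2-Ab1. H2-Ab1 stood at 7.88, 8.02 and 9.55 in control arrays, passed the limit on 2 of 3 expanded and 0 of 2 TPA arrays, and so has no exact difference. The summed signal of the Langerhans cell list ran from 10.61 to 11.18, 9.97 to 10.19 and 10.35 to 10.47. Epcam alone, at 9.70 ± 0.18, 8.66 ± 0.31 and 9.45 ± 0.23, makes up a large part of it. Of 7 macrophage and neutrophil markers, 0 were higher and 1 lower in expanded arrays, and 0 were higher and 2 lower in TPA arrays. S100a9, a gene of neutrophils and of stressed keratinocytes, was lower in TPA arrays (-2.37 ± 0.40), and the list had a summed signal of 10.81 to 11.05, 10.35 to 10.43 and 9.19 to 9.77. The part of these shifts in the results above was not tested.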

How the data were processed

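Epidermal basal cells of 8 mice were profiled on Affymetrix arrays. The deposited values are log2 signals, which the authors computed by RMA (version not given), per the submitters' processing notes. RMA evens out the arrays, so a shift of most transcripts at once would not show. Of 45141 probe sets, 28898 carried 1 gene symbol in the platform annotation of 2016, 551 several and 15588 none, and 104 were array controls. All 8 arrays entered one limma 3.58.1 fit in R 4.3.3 (lmFit and eBayes, a mean for each group), which was also tested on simulated data. There, 14% of genes changed by a fold of 1.25 were recovered in expanded against control, and 4% in each comparison with TPA. At a fold of 1.5 the shares were 64% in expanded against control, 38% in TPA against control and 58% in expanded against TPA. A small difference that was not called is thus not shown to be absent. Named are all genes of the module, up to 4 called genes of each pathway list with the smallest p, and checks of the sort and labels. The other markers of cell types were picked after their values were seen. No gene was left out for a low signal. The members and lists were chosen with earlier results of these data known, so no set test was made. Alternatives were other normalizations, filters, probe set rules, eBayes options, weights, a replicate block and leaving out arrays. The number of arrays limits the precision.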

Additional observations from a re-analysis of the deposited data

How the results depend on the processing

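The median difference of the 33 genes between expanded and control stayed between 0.18 and 0.26 under all 18 alternatives, and no called gene changed sign under any of them. In expanded against control, 7 genes were higher; there were 11 with the filter on dim genes (24.2% of all genes called, 11.5% without it), 11 with a trended robust eBayes (13.6%), 13 with array weights (14.8%), 0 against a fold of 1.5 (1.01%), and 4 to 8 on leaving out 1 array (7.38% to 12.1%). In TPA against control, 3 were higher and 1 lower (20.8% of all genes called). Against a fold of 1.5 there were 1 (Myc) and 0 (3.49%), and with a trended robust eBayes 2 were lower (21.8%). On leaving out 1 control or expanded array 1 was lower (16.2% to 19.6%). On leaving out any 1 array the medians ran from -0.06 to 0.06. In expanded against TPA, 4 were higher and 1 lower; 2 were higher with arrays centred on their median (5.62% of all genes called, 5.98% without it), 7 with a trended robust eBayes (7.8%), and 1 and 0 were called with only the groups compared (2.99%), 0 and 0 with the replicate block (3.16%) and 0 and 0 against a fold of 1.5 (0.374%). Leaving out 1 array gave 0 to 5 higher and 0 to 1 lower (3.28% to 5.39%), with medians of 0.12 to 0.25. The replicate numbers name different mice, and same-numbered arrays had residual correlations of -0.18 to 0.03. The replicate block left 7 higher in expanded against control (9.6% of all genes called). In TPA against control it left 3 higher and 1 lower (16.5%). Where a TPA array was left out, the lone array was assumed to vary like the other groups. The cause of these moves was not tested. Myc, Nop10, Nop2 and Polr1b kept their expanded call under every alternative other than the fold of 1.5.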
